A study of Homo sapiens
Mus musculus and Homo sapiens with 2 samples.

Results

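A549 cells exposed to dexamethasone for 10 h were set against A549 cells at 0 h, and each gene was read in newly made RNA and in older RNA. A549 is a human lung adenocarcinoma line, and dexamethasone (DEX) is a synthetic glucocorticoid. The cells were chosen by the treatment time in the authors' cell annotation, which gave 1446 cells at 10 h and 1151 cells at 0 h. These were 2597 of the 7404 A549 cells and of the 13711 cells in the series. The 10 h culture had 100 nM DEX by the treatment protocol, while another label of the same sample gives 101 nM. The protocol gives ethanol in equal volume to the control cells, and the labels name no other difference between the times. Both cultures carried 4-thiouridine (S4U), a uridine analog that cells build into RNA, at 200 µM for the last 2 h before harvest. New RNA at 10 h was therefore made between hours 8 and 10 of treatment. Cultures at 2, 4, 6 and 8 h, and HEK293T cells (a human embryonic kidney line) labelled for 6 h, served only as further readouts of the same genes.

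The assay, sci-fate, is a single-cell RNA method in which iodoacetamide modifies S4U in fixed cells and the modified bases are copied as mismatches. The authors called the molecules they took as labelled newly synthesised. New counts never exceeded whole counts in any entry, and whole minus new counts are called pre-existing RNA here. That fraction also keeps any labelled-window molecules missed by the call, and their part in a pre-existing value was not tested. The call can err the other way too. In HEK293T cells taken as background 1.2465% of counts were called new, beside 54.5% in the labelled HEK293T cells. How much such calls add to new counts of A549 genes was not tested, including genes with a small share of counts called new.

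Glucocorticoids bind the glucocorticoid receptor, encoded by NR3C1, which moves from a chaperone complex in the cytoplasm to the nucleus and binds DNA. There it raises transcription of one set of genes, such as FKBP5 and TSC22D3, and lowers transcription of inflammatory genes, partly by acting on other transcription factors. The amount of an RNA follows its synthesis and its decay, so that a change in synthesis reaches the pool of a stable RNA late and the pool of a short-lived RNA early. Many cytokine and early response RNAs decay fast through AU-rich elements in the 3′ UTR, which are bound by decay factors such as ZFP36.

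There was 1 culture a side. No p-value can be given for any difference, and the exact 95% intervals printed below cover counting error only. The cultures held 40835413 whole counts at 10 h and 33530002 at 0 h, of which 20.99% and 20.86% were new. Median whole counts per cell were 25877 at 10 h and 26628 at 0 h, and introns gave 48.7% of new counts at 10 h and 46.2% at 0 h. No cell name was shared between times, and none of the 378 reverse transcription barcodes was used at more than 1 time, so culture, barcode set and treatment time cannot be told apart. All 12 of the A549 markers listed (keratins, EPCAM, AKR1B10 and others) had counts in both cultures, and their summed whole level was 31043 CPM (counts scaled to a total of 1000000) at 10 h and 24104 CPM at 0 h. Summed levels were 7.44 CPM at 10 h and 12.0 CPM at 0 h for 8 fibroblast markers, with COL1A2 at 0 at 10 h, and 8.35 and 11.1 CPM for 8 leukocyte and blood markers, with 2 of them at 0 at 0 h. The 5 HEK293T markers in the table summed to 33.7 CPM at 10 h and 33.6 CPM at 0 h.

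Levels are new counts scaled to 1000000 new counts (new CPM) and pre-existing counts scaled to 1000000 pre-existing counts (pre-existing CPM), summed over cells. A ratio is the level at 10 h over the level at 0 h within one kind of RNA, and a sum does not tell a change in every cell from a change in some cells. The 11032 genes tested, of 43167 in the table, had at least 100 counts over both cultures in each kind of RNA, and 10261 of them were protein-coding. The median log2 ratio over these genes was -0.07 in new and -0.05 in pre-existing RNA.

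In new RNA 364 genes (3.3%) were 2-fold or more higher at 10 h and 280 genes (2.54%) were 2-fold or more lower. In pre-existing RNA 307 genes (2.78%) were higher and 190 genes (1.72%) were lower by the same measure. The neighbouring culture at 8 h gives a comparison between treated cultures. It does not involve the 0 h culture, so it cannot show how many of these genes a difference of that single culture would give. Between 10 h and 8 h, 1 gene (0.00906%) was 2-fold higher and 8 genes (0.0725%) were 2-fold lower in new RNA, and pre-existing RNA gave the same counts, 1 gene (0.00906%) higher and 8 genes (0.0725%) lower.

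Genes higher at 10 h were mostly higher in both kinds of RNA, and genes lower at 10 h less uniformly so. Both kinds passed 2-fold upward for 271 genes, which are 74.5% of those higher in new and 88.3% of those higher in pre-existing RNA. Both kinds passed 2-fold downward for 151 genes, which are 53.9% of those lower in new and 79.5% of those lower in pre-existing RNA. No gene passed 2-fold in opposite directions. A further 93 genes were 2-fold higher in new RNA while pre-existing RNA was under 2-fold, and for 21 of these pre-existing RNA lay within 1.5-fold of 0 h. The reverse, higher in pre-existing RNA with new RNA under 2-fold, held for 36 genes, 6 of them with new RNA within 1.5-fold. Downward, 129 genes passed in new RNA with pre-existing RNA under 2-fold (59 within 1.5-fold), and 39 passed in pre-existing RNA with new RNA under 2-fold (13 within 1.5-fold). The 6 classes described below are the 2 sets of genes past 2-fold in both kinds and the 4 sets past 2-fold in one kind and within 1.5-fold in the other, called higher or lower in that kind alone.

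**Figure D1:**
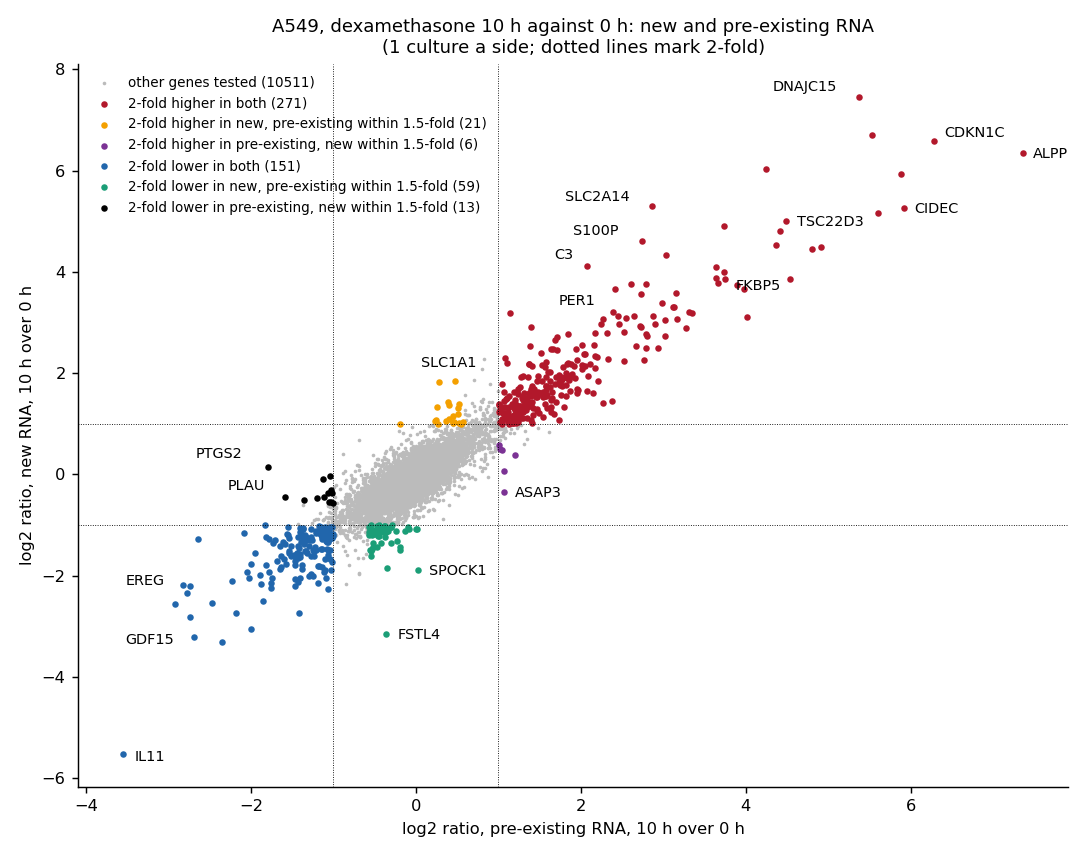
Log2 ratio of 10 h over 0 h in new RNA (y axis) against pre-existing RNA (x axis) for the 11032 genes tested, 1 point a gene, coloured by class, with dotted lines at 2-fold. Most coloured genes lie along the diagonal (271 higher and 151 lower in both kinds), and PTGS2, FSTL4 and SPOCK1 lie off it.

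The classes had different courses over the cultures at 2 to 8 h. Every ratio uses the 0 h culture that also defined the classes, and the values at 10 h follow from the definition. The definition also favours 10 h as the time of the highest or lowest new RNA in the counts of genes below. Over all 11032 genes tested, new RNA was highest at 10 h for 1698 and lowest at 10 h for 2018. The median log2 ratio to 0 h of the 271 genes higher in both kinds was 1.41, 1.67, 1.74, 1.75 and 1.72 in new RNA at 2, 4, 6, 8 and 10 h. In pre-existing RNA the same genes had medians of 0.31, 1.05, 1.44, 1.60 and 1.58. New RNA of these genes was thus near its 10 h level by 4 h, and pre-existing RNA came near it at 8 h. With S4U in the last 2 h, the 2 h culture was labelled over its whole treatment. Pre-existing ANGPTL4 RNA stood at 50.8 pre-existing CPM at 2 h and 11.1 at 0 h, and that of AQP3 at 11.1 and 11.4. How far new molecules missed by the call gave such pre-existing values was not tested. For the 151 genes lower in both kinds the medians were -0.83, -1.42, -1.45, -1.41 and -1.48 in new RNA and -0.19, -0.69, -1.06, -1.18 and -1.35 in pre-existing RNA, so pre-existing RNA was still lower at 10 h than at 8 h. The 13 genes lower in pre-existing RNA alone had new RNA medians of -0.71, -0.96, -0.60, -0.44 and -0.45. The median of their new RNA was lowest at 4 h, although only 5 of the 13 genes each had their lowest new RNA then. The median of their pre-existing RNA stood at -1.11 at 8 h and -1.06 at 10 h.

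**Figure D2:**
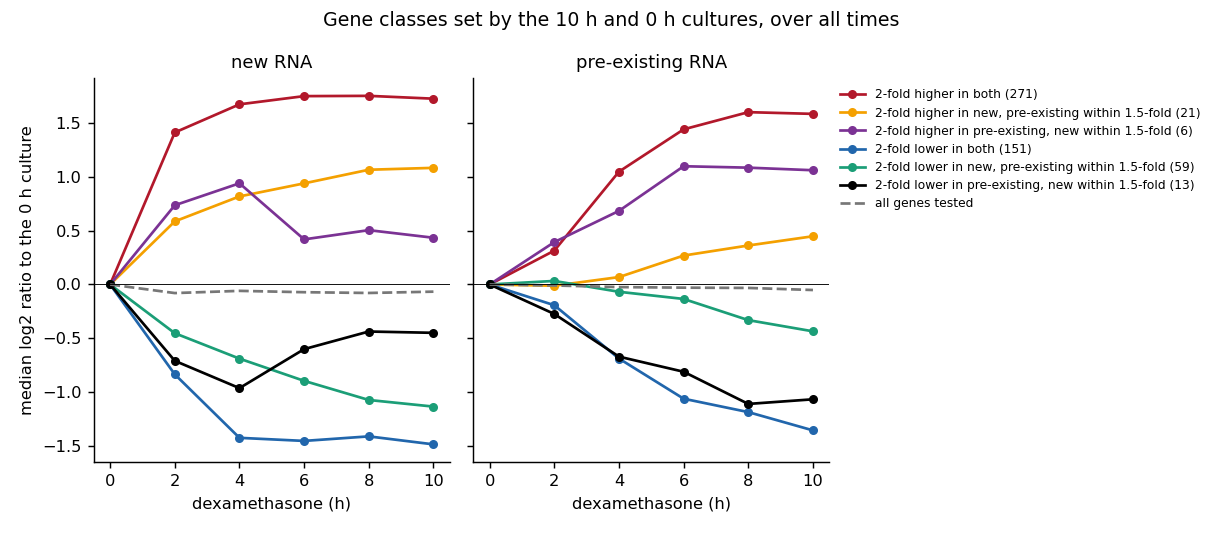
Median log2 ratio to the 0 h culture (y axis) in new RNA (left) and pre-existing RNA (right) against hours of dexamethasone (x axis), 1 line for each class and a dashed line for all genes tested. Median new RNA of the genes higher in both kinds stands at 1.67 by 4 h, where their pre-existing RNA stands at 1.05. The median new RNA of the genes lower in pre-existing RNA alone is lowest at 4 h.

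Among the 271 genes higher in both kinds, new RNA was highest at 10 h for 93, at 8 h for 38, at 6 h for 42, at 4 h for 77 and at 2 h for 21. FKBP5, a co-chaperone that lowers the affinity of the receptor for hormone, lies at chr6:35573585-35728583 (GRCh38, minus strand). Its new RNA ran 65.3, 768, 1056, 1005, 990 and 943 new CPM at 0, 2, 4, 6, 8 and 10 h. Its pre-existing RNA ran 45.5, 86.0, 271, 522, 612 and 612 pre-existing CPM over the same times. New FKBP5 RNA was highest at 4 h, and the older pool was level between 8 and 10 h. At 10 h over 0 h the ratio was 14.4 in new (95% interval 13.1 to 15.9) and 13.4 in pre-existing RNA (12.7 to 14.2), and the new share of its counts was 29.1% at 10 h and 27.4% at 0 h. TSC22D3 (GILZ), an anti-inflammatory leucine zipper protein, had 268 new CPM at 10 h and 8.29 at 0 h, and 49.9 pre-existing CPM at 10 h and 2.22 at 0 h. Its ratios were 32.3 in new (24.9 to 42.7) and 22.4 in pre-existing RNA (17.3 to 29.6).

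The 6 protein-coding genes with the largest product of both folds had few counts at 0 h. CIDEC, a lipid droplet protein that drives droplet fusion, had 898 new and 5641 pre-existing counts at 10 h, against 19 and 77 counts at 0 h. New CIDEC RNA ran 2.72, 63.8, 98.9, 101, 103 and 105 new CPM over 0 to 10 h, a plateau from 4 h on, while its pre-existing RNA ran 2.90, 8.15, 46.7, 99.8, 146 and 175 pre-existing CPM and was highest at 10 h. Its ratios were 38.6 in new (24.5 to 64.4) and 60.3 in pre-existing RNA (48.1 to 76.5). CDKN1C, the cyclin-dependent kinase inhibitor p57, had 235 new counts at 10 h and 2 at 0 h, a ratio of 95.9 (26.2 to 796), and 1130 pre-existing counts at 10 h and 12 at 0 h, a ratio of 77.5 (44.2 to 150). EDN3, an endothelin peptide precursor, had 150 new counts at 10 h and 2 at 0 h, a ratio of 61.2 (16.6 to 510), with a pre-existing ratio of 58.8 (26.8 to 161). The wide intervals of these genes come from the few counts at 0 h.

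ALPP, placental alkaline phosphatase, had 100 new counts at 10 h and 1 at 0 h, a ratio of 81.6 (14.3 to 3254), and 1002 pre-existing counts at 10 h and 5 at 0 h, a ratio of 165 (70.4 to 509). ALPP has near-identical paralogs, so how its reads were split is uncertain. DNAJC15, a mitochondrial co-chaperone, had 216 new counts at 10 h and 1 at 0 h, a ratio of 176 (31.3 to 6993), with a pre-existing ratio of 41.4 (21.6 to 91.1). SLC16A12, a monocarboxylate transporter family member, had 254 new counts at 10 h and 2 at 0 h, a ratio of 104 (28.4 to 860), with a pre-existing ratio of 46.2 (26.3 to 89.9). New SLC16A12 RNA was highest at 6 h (46.4 new CPM) and stood at 29.6 new CPM at 10 h, whereas new ALPP RNA was highest at 4 h (16.7 new CPM) and stood at 11.7 at 10 h.

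New and pre-existing folds lay within 1.5-fold of each other for 227 of the 271 genes higher in both kinds (83.8%). The new fold was 1.5-fold or more the larger for 37 genes, of which 21 had their highest new RNA at 10 h, a time that this choice favours. The new share was higher at 10 h with intervals apart from 0 h for 23 of the 37. A larger new fold goes with a higher new share in the same counts, so these shares are no separate result. The pre-existing fold was the larger for 7 genes, 4 of them with the highest new RNA at 4 h. C3, the central complement protein, lies at chr19:6677704-6730562 (GRCh38, minus strand) and had new RNA of 2.00, 3.58, 11.9, 24.9, 28.5 and 34.5 new CPM over 0 to 10 h. Its new ratio was 17.3 (10.1 to 31.9) and its pre-existing ratio 4.21 (3.70 to 4.80), and its new share was 17.1% at 10 h (15.3 to 18.9) and 4.75% at 0 h (2.62 to 7.83). New C3 RNA was highest in the last culture, and the older pool was still far behind it in fold. SLC2A14, a glucose transporter whose sequence is nearly that of SLC2A3, so that its reads may be split, had ratios of 39.2 in new (22.3 to 76.4) and 7.25 in pre-existing RNA (5.30 to 10.1). SCNN1G, the gamma subunit of the epithelial sodium channel, had 239 new counts at 10 h and 3 at 0 h, a ratio of 65.0 (22.0 to 317), with a pre-existing ratio of 18.9 (8.47 to 52.4).

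**Figure D3:**
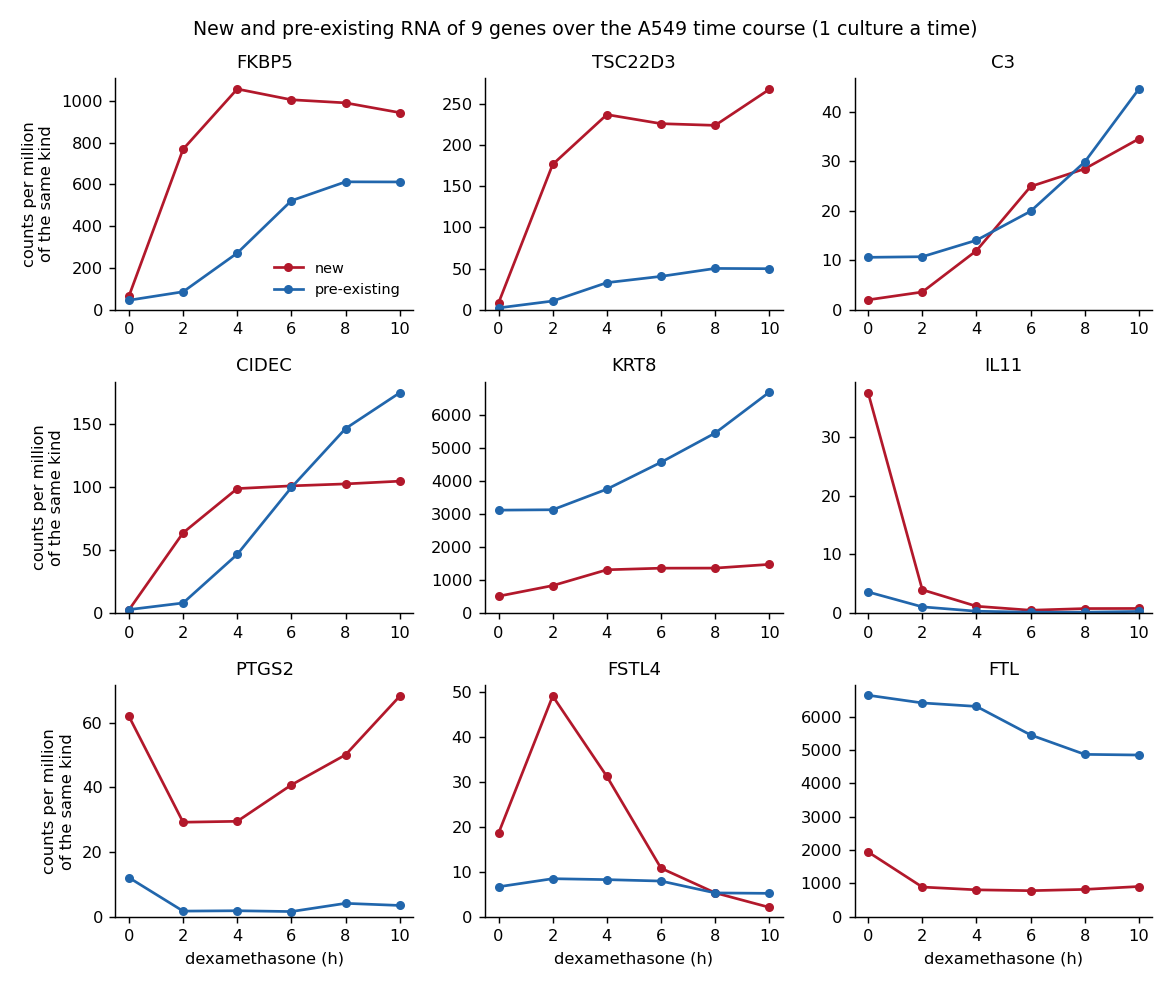
New (red) and pre-existing (blue) CPM, each scaled to counts of its own kind (y axis), against hours of dexamethasone (x axis) for 9 genes, 1 culture a time. New FKBP5 and CIDEC RNA level off from 4 h while their older RNA goes on to 612 and 175 pre-existing CPM, new C3 RNA is highest at 10 h, and new PTGS2 RNA returns to 68.1 new CPM at 10 h while its older RNA stays at 3.50.

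How much of the gain in whole RNA sat in pre-existing counts differed widely between these genes. Those counts keep any labelled-window molecules missed by the call. The part of such molecules in the values below was not tested, also for genes with a high new share such as DDIT4, DUSP1 and ERRFI1. The gain is the whole level at 10 h minus that at 0 h, in whole CPM, and the part of it in pre-existing counts had a median of 62.7% over the 271 genes (quartiles 37.0% and 78.2%, range 9.16% to 97.0%). It was at least 90% for 19 genes and under 25% for 22 genes, and over the summed gain of all 271 it was 71.0%. KRT8, an epithelial keratin, had 93.3% of its gain in pre-existing RNA, with 6686 pre-existing CPM at 10 h and 3119 at 0 h beside 1478 new CPM at 10 h and 516 at 0 h. HSPB1, a small heat shock protein, had 93.8%, and AQP3, a water and glycerol channel, had 96.2%. At the other end stood DDIT4, an inhibitor of mTORC1 signalling, with 9.16%, DUSP1, a phosphatase that inactivates MAP kinases, with 13.5%, and ERRFI1, an inhibitor of the EGF receptor, with 18.5%. DDIT4 had 646 new CPM at 10 h and 228 at 0 h, beside 18.8 pre-existing CPM at 10 h and 7.61 at 0 h, and its new share was 90.1% at 10 h and 88.8% at 0 h. Between the extremes, FKBP5 had 70.8%, ANGPTL4, a secreted inhibitor of lipoprotein lipase, had 64.9%, TSC22D3 had 40.9% and PER1 had 29.0%. Because the part is built from the same counts as the new share, it falls as the new share at 0 h goes up, and that relation is no separate result.

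**Figure D4:**
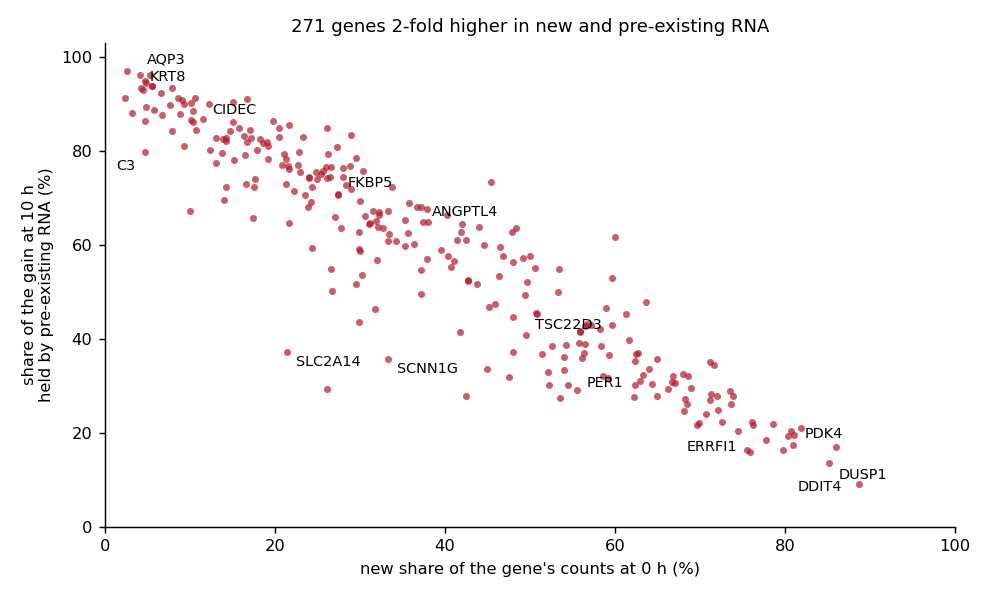
Share of the gain at 10 h over 0 h held by pre-existing RNA (y axis, %) against the new share of the gene's counts at 0 h (x axis, %) for the 271 genes higher in both kinds, 1 point a gene. KRT8 and AQP3 lie at the top left (93.3% and 96.2%), DUSP1 and DDIT4 at the bottom right (13.5% and 9.16%), and both axes share the 0 h counts. Pre-existing counts keep any new molecules missed by the call.

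The 21 genes higher in new RNA with pre-existing RNA within 1.5-fold had modest folds. Their median log2 ratio was 1.08 in new and 0.45 in pre-existing RNA. New RNA was highest at 10 h, a time that the class definition favours, for 12 of the 21 and for 1698 of all 11032 genes tested. Their median new share was 30.3% at 10 h and 20.0% at 0 h, a direction that follows from the class definition. SLC1A1, a neuronal and epithelial glutamate transporter, had 10.1 new CPM at 10 h and 2.86 at 0 h, a ratio of 3.55 (2.16 to 6.09), and 3.91 pre-existing CPM at 10 h and 3.20 at 0 h, a ratio of 1.22 (0.919 to 1.62). MFGE8, a secreted protein that bridges dying cells to phagocytes, had new RNA of 15.0, 12.7, 18.4, 28.8, 31.7 and 38.6 new CPM over 0 to 10 h. It lay above its 0 h level from 4 h on, with ratios at 10 h of 2.57 in new (2.06 to 3.23) and 1.32 in pre-existing RNA (1.24 to 1.40). PIEZO2, a mechanically gated channel, had ratios of 2.53 in new (1.87 to 3.47) and 1.20 in pre-existing RNA (0.977 to 1.47). MTSS1, PDZD2 and MGAM completed the first 6 of the class, with new ratios of 2.70, 2.61 and 2.48 and pre-existing ratios of 1.31, 1.44 and 1.42.

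Only 6 genes were higher in pre-existing RNA with new RNA within 1.5-fold, and 5 of them were protein-coding. New RNA of 4 of the 6 was highest at 4 h. SLC16A3, which exports lactate, had new RNA of 17.9, 24.5, 35.5, 29.3, 26.5 and 25.4 new CPM over 0 to 10 h and pre-existing RNA of 42.9, 45.1, 63.7, 76.3, 77.6 and 86.8 pre-existing CPM. Its new RNA was highest at 4 h and its older RNA at 10 h, with ratios of 1.42 in new (1.14 to 1.79) and 2.02 in pre-existing RNA (1.89 to 2.17). ASAP3, a GTPase-activating protein for ARF proteins, had new RNA of 9.29, 18.1, 19.4, 12.3, 11.0 and 7.35 new CPM. It was thus highest at 4 h and below its 0 h level at 10 h, a ratio of 0.791 whose interval (0.550 to 1.14) includes 1, beside a pre-existing ratio of 2.10 (1.66 to 2.66). Its new share was 19.2% at 10 h and 38.5% at 0 h. ARHGEF4 had ratios of 1.31 in new (0.914 to 1.90) and 2.31 in pre-existing RNA (1.60 to 3.38). FMO4 and FADS3 had pre-existing ratios of 2.07 and 2.01. All 5 named pre-existing ratios lay close to the 2-fold threshold.

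Genes lower in both kinds were led, by the product of both folds, by IL11, GDF15, PDE1C, TRIML2, C6orf141 and EREG. IL11, a cytokine of the IL-6 family at chr19:55364389-55370463 (GRCh38, minus strand), had new RNA of 37.5, 4.00, 1.19, 0.514, 0.798 and 0.817 new CPM over 0 to 10 h. Its pre-existing RNA was 0.310 pre-existing CPM at 10 h and 3.62 at 0 h. With 7 new counts at 10 h and 262 at 0 h, new IL11 RNA was 45.9-fold lower at 10 h (22.0 to 115), and pre-existing RNA was 11.7-fold lower (6.08 to 25.1). The loss in new RNA was nearly complete by 4 h. EREG, a ligand of the EGF receptor, had 128 new CPM at 10 h and 645 at 0 h, 5.04-fold lower (4.72 to 5.39), and 13.1 pre-existing CPM at 10 h and 89.2 at 0 h, 6.82-fold lower (6.15 to 7.58). GDF15, a stress-induced cytokine, was 9.23-fold lower in new (6.29 to 14.0) and 6.44-fold lower in pre-existing RNA (3.97 to 11.0). PDE1C, which hydrolyses cyclic nucleotides, was 9.85-fold lower in new (8.50 to 11.5) and 5.08-fold lower in pre-existing RNA (4.55 to 5.69).

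Among these 151 genes new and pre-existing folds lay within 1.5-fold of each other for 124 (82.1%), the new fall was the larger for 23 and the pre-existing fall for 4. New RNA was lowest at 10 h for 57 genes, at 8 h for 21, at 6 h for 29, at 4 h for 40 and at 2 h for 4. The part of the loss in whole RNA that sat in pre-existing RNA had a median of 54.8%. SLC7A11, the cystine transporter, had 75.1% of its loss there, and it stood at 245 new CPM at 10 h and 698 at 0 h, with 189 pre-existing CPM at 10 h and 548 at 0 h. IL11 had 25.5% of its loss in pre-existing RNA, EREG 35.9% and AXL, a receptor tyrosine kinase, 84.2%. TRIML2 and C6orf141 were 7.02-fold and 5.86-fold lower in new RNA.

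The 59 genes lower in new RNA with pre-existing RNA within 1.5-fold had a median log2 ratio of -1.13 in new and -0.43 in pre-existing RNA. New RNA was lowest at 10 h for 33 of them, a time that the class definition favours, and for 2018 of all 11032 genes tested. Their median new share was 13.5% at 10 h and 24.0% at 0 h, beside 28.8% and 28.9% over all genes tested. The fall in share follows from the class definition. FSTL4, a secreted follistatin-like protein, had new RNA of 18.6, 49.1, 31.2, 10.8, 5.32 and 2.10 new CPM over 0 to 10 h, and pre-existing RNA of 6.67, 8.47, 8.26, 7.94, 5.31 and 5.21 pre-existing CPM. New FSTL4 RNA was above its 0 h level at 2 and 4 h and 8.85-fold below it at 10 h (5.39 to 15.4), while pre-existing RNA was 1.28-fold lower (1.03 to 1.59). SPOCK1, a secreted proteoglycan, was 3.68-fold lower in new RNA (2.46 to 5.63), with a pre-existing ratio of 1.02 (0.810 to 1.29), and its new share was 16.3% at 10 h and 41.9% at 0 h. LRP1, a large endocytic receptor, was 3.59-fold lower in new RNA with a pre-existing ratio of 0.788 (0.687 to 0.904).

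FTL, the ferritin light chain that stores iron, was the most abundant gene named in this class, with pseudogenes that may share its reads. It had 908 new CPM at 10 h and 1943 at 0 h, 2.14-fold lower (2.08 to 2.20), and 4852 pre-existing CPM at 10 h and 6645 at 0 h, 1.37-fold lower (1.36 to 1.38). New FTL RNA was already at 892 new CPM at 2 h, whereas its older RNA still stood at 6414 pre-existing CPM then. MCM2, a subunit of the replicative helicase, was 2.19-fold lower in new RNA with a pre-existing ratio of 0.729 (0.682 to 0.779). PHGDH, the first enzyme of serine synthesis, was 2.56-fold lower in new RNA with a pre-existing ratio of 0.815 (0.722 to 0.920), and SERPINH1, a collagen chaperone, was 2.07-fold lower with a pre-existing ratio of 0.809 (0.746 to 0.878). CYP4F11, RHBDL3 and UNC5D were 2.87-fold, 2.82-fold and 2.82-fold lower in new RNA.

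The 13 genes lower in pre-existing RNA with new RNA within 1.5-fold were led by PTGS2, the inducible cyclooxygenase that makes prostaglandin precursors, at chr1:186671791-186680427 (GRCh38, minus strand). Its new RNA was 61.9, 29.2, 29.5, 40.7, 50.0 and 68.1 new CPM over 0 to 10 h. Its pre-existing RNA was 12.1, 1.76, 1.87, 1.62, 4.16 and 3.50 pre-existing CPM. New PTGS2 RNA was lowest at 2 h and back at the 0 h level at 10 h, with a ratio of 1.1 (0.970 to 1.249), and pre-existing RNA remained 3.45-fold lower (2.78 to 4.32). Its new share was 83.8% at 10 h (80.8 to 86.4) and 57.4% at 0 h (53.8 to 61.0). PLAU, the urokinase plasminogen activator, had new RNA of 36.5, 13.6, 16.9, 20.7, 26.3 and 26.6 new CPM and a new ratio of 0.730 (0.607 to 0.876), beside pre-existing RNA 3.00-fold lower (2.56 to 3.52). Like PTGS2 it had its lowest new RNA at 2 h. SYTL2, a vesicle trafficking protein, CA8, a carbonic anhydrase-related protein, and RGS5, a regulator of G protein signalling, had new ratios of 0.704, 0.721 and 0.733 and pre-existing ratios of 0.392, 0.437 and 0.461. C2orf15 had a new ratio of 0.936 and a pre-existing ratio of 0.458.

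Of the genes selected by class or list, 110 had a 3′ UTR sequence, and 17 carried the AU-rich nonamer TTATTTATT in it. These were 7 of 38 higher in both kinds, 6 of 18 lower in both kinds, 2 of 5 lower in pre-existing RNA alone and 2 of 21 past 2-fold in neither kind. Among the last was RPS27L, a ribosomal protein paralog with a new ratio of 0.778 and a new share of 7.12% at 10 h. DDIT4, ERRFI1, NFKBIA, PDK4, IER3 and CCL2 held no match. The first site in each of 7 of the 17 genes is shown to let the letters be compared across genes higher and lower at 10 h, with the nonamer in capitals and 10 bases on each side, read from the GENCODE 29 transcripts of GRCh38 on the gene's strand.
IL11: aagccagatcTTATTTATTtatttatttc
GDF15: tataagtctgTTATTTATTattaatttat
EREG: ttattaatttTTATTTATTtttcttggga
PTGS2: atgatcatatTTATTTATTtatatgaacc
PER1: ggggctgcacTTATTTATTgcggggagac
DUSP1: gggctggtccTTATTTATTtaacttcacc
ZFP36: tatgacgactTTATTTATTctaatatgat

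The coordinates given here span the printed stretch of 29 bases, flanks included. The IL11 stretch lies at chr19:55365947-55365975 on the minus strand, and its nonamer starts at base 42 after the stop codon. The IL11 3′ UTR holds 6 matches, overlaps counted. The GDF15 stretch lies at chr19:18389054-18389082 (plus), that of EREG at chr4:74388669-74388697 (plus) and that of PTGS2 at chr1:186674317-186674345 (minus). The PER1 stretch lies at chr17:8140707-8140735 (minus), that of DUSP1 at chr5:172768643-172768671 (minus) and that of ZFP36 at chr19:39409196-39409224 (plus). The nonamer was searched on the transcript strand, in 1 transcript a gene, and 1423 of 19586 transcripts (7.27%) held it, as did 905 of the 10118 tested genes with a sequence (8.94%). It was present in 26 of 135 genes lower in both kinds (19.3%), in 29 of 254 higher in both kinds (11.4%), in 2 of 11 lower in pre-existing RNA alone (18.2%), in 1 of 53 lower in new RNA alone (1.89%) and in 2 of 17 higher in new RNA alone (11.8%). Among genes past 2-fold in one kind and between 1.5-fold and 2-fold in the other, it was present in 15 of 90 higher (16.7%) and 9 of 87 lower (10.3%). Median 3′ UTR lengths were 1544 bases for genes lower in both kinds, 1449.5 for those higher in both kinds, 1322 for those lower in new RNA alone and 1220.5 over all tested genes. The nonamer shares were not adjusted for length. A match is a run of letters and does not show a decay element in use. ZFP36, the decay factor itself, had 178 new CPM at 10 h and 40.0 at 0 h, a ratio of 4.43 (3.90 to 5.06), and 13.8 pre-existing CPM at 10 h and 3.32 at 0 h, a ratio of 4.16 (3.30 to 5.29).

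A readout from another cell line bears on the same genes. In HEK293T cells labelled for 6 h, among genes with at least 100 counts there, the median new share was 71.8% over the 8804 tested genes measured in both lines. It was 81.2% for 51 genes lower in both kinds and 76.6% for 110 higher in both kinds. For the classes whose older RNA had moved little, it was 60.4% for 32 genes lower in new RNA and 57.7% for 9 higher in new RNA. Quartiles were 21.8% and 79.5% for those 32 genes and 35.3% and 71.7% for those 9. Over all tested genes measured in both lines the quartiles were 49.4% and 80.8%, so the ranges overlapped widely. The 8 measured genes lower in pre-existing RNA had a median of 74.2%, and only 2 of those higher in pre-existing RNA were measured. Many glucocorticoid-responsive genes of A549 had too few counts in HEK293T cells, so these medians cover part of each class.

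The receptor and its partners were mostly within 2-fold. Of 20 tested members of the list, 2 were 2-fold higher in each kind, beside 3.3% of all genes tested in new and 2.78% in pre-existing RNA. They were FKBP5 and HSD11B2, an enzyme that inactivates cortisol. HSD11B2 had ratios of 14.5 in new (7.15 to 34.2) and 23.2 in pre-existing RNA (16.0 to 34.9). HSP90AA1, a chaperone of the receptor, was the member 2-fold lower in new RNA, 2.20-fold, with a pre-existing ratio of 0.622 (0.617 to 0.627). NR3C1 itself had 1014 new CPM at 10 h and 1296 at 0 h, a ratio of 0.783 (0.760 to 0.806), and 174 pre-existing CPM at 10 h and 229 at 0 h, a ratio of 0.760 (0.733 to 0.788). Its new RNA was lowest at 4 h, at 811 new CPM.

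Of 37 tested genes on a list of known glucocorticoid-induced genes, 30 were 2-fold higher in new RNA, 29 in pre-existing RNA and 28 in both, with median log2 ratios of 1.92 and 1.70. The list was drawn up with earlier results of these data known, so its direction is a description. Over all genes tested the medians were near 0, and 3.3% and 2.78% were higher. One member was 2-fold lower in both kinds, PHLDA1, named after its values were seen. Of 17 tested clock genes 3 were 2-fold higher in both kinds, 1 was 2-fold lower in new RNA and 2 in pre-existing RNA, with list medians of 0.17 in new and -0.05 in pre-existing RNA on the log2 scale. The 3 higher genes were PER1, PER2 and CRY2, which repress the clock, with new ratios of 9.20, 2.53 and 2.57. NPAS2, which activates it, was 2.96-fold lower in new and 2.64-fold lower in pre-existing RNA, and ARNTL2, named after its values were seen, was the second member 2-fold lower in pre-existing RNA.

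Transport and lipid genes were higher where they passed 2-fold. Of 15 tested members of the ion transport list 6 were 2-fold higher in both kinds and none was lower. Over all 11032 genes tested, 271 were 2-fold higher in both kinds, 3.3% in new and 2.78% in pre-existing RNA. SCNN1A, the alpha subunit of the epithelial sodium channel, had ratios of 9.27 in new (6.29 to 14.2) and 9.90 in pre-existing RNA (8.21 to 12.0), and the beta subunit gene SCNN1B had 20.1 (10.0 to 47.2) and 8.19 (6.10 to 11.2). Of 18 lipid storage genes 5 were higher in both kinds, among them ACSL1, which activates fatty acids, with ratios of 5.81 in new and 6.37 in pre-existing RNA, and PDK4, which restrains pyruvate oxidation, with 6.67 and 6.97.

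Genes of acute phase and other secreted proteins, many of them made by liver, were mostly higher where they passed 2-fold. Of 13 tested acute phase and secreted genes 7 were 2-fold higher in both kinds, beside 271 of all 11032 genes tested. The list's median new share was 17.1% at 10 h and 8.75% at 0 h. The fibrinogen chains FGA, FGB and FGG, the clot protein's subunits, had new ratios of 8.55 (7.25 to 10.1), 5.59 (4.70 to 6.70) and 4.40 (3.42 to 5.73). Their pre-existing ratios were 5.86 (5.45 to 6.30), 3.12 (2.96 to 3.29) and 2.65 (2.49 to 2.83). All 3 had larger folds in new than in pre-existing RNA, and new RNA of each was highest at 10 h. SERPINE2 was the member 2-fold lower in new RNA and PLAU the member 2-fold lower in pre-existing RNA, the first named after its values were seen.

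Inflammatory genes were lower where they passed 2-fold, apart from IL18. Over all genes tested, 3.3% were 2-fold higher and 2.54% lower in new RNA, and 2.78% higher and 1.72% lower in pre-existing RNA. In both kinds 271 of the 11032 genes were higher and 151 lower. Only 8 of 27 inflammatory genes had enough counts. Of these 5 were 2-fold lower in new RNA and 6 in pre-existing RNA, and IL18, named after its values were seen, was 2-fold higher in new RNA. CCL2, a monocyte attractant, was 4.52-fold lower in new (3.73 to 5.50) and 7.06-fold lower in pre-existing RNA (5.05 to 10.1). CSF1 and PLAUR were 2.83-fold and 3.02-fold lower in new RNA. Of 21 immediate early genes 7 were lower and 4 higher in new RNA. IER3 and FOSL1 were 4.33-fold and 3.43-fold lower, whereas ZFP36 and CTGF were 4.43-fold and 3.24-fold higher. Of 14 tested genes on the EGF and MAP kinase feedback list 2 were 2-fold lower in both kinds, the ligands EREG and TGFA, and 2 were 2-fold higher in both kinds, the inhibitors ERRFI1 and DUSP1, with new ratios of 3.79 and 3.44. The other members passed in neither kind, and the list's median log2 ratio was -0.14 in new RNA. Of 15 NF-kB pathway genes 3 were higher in new RNA, the inhibitors NFKBIA (2.25-fold) and TNIP1 (2.17-fold) and the survival gene BIRC3 (2.66-fold). The inhibitor NFKBIE went the other way, with ratios of 0.551 in new (0.404 to 0.749) and 0.605 in pre-existing RNA (0.501 to 0.730). None of the 15 was 2-fold lower in new RNA, NFKB2 and RELB, named after their values were seen, were 2-fold lower in pre-existing RNA, and the list's median log2 ratios were -0.12 in new and -0.18 in pre-existing RNA.

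The lists on growth, stress and housekeeping genes differed among themselves, and their counts stand beside 3.3% higher and 2.54% lower in new RNA and 2.78% higher and 1.72% lower in pre-existing RNA over all genes tested. All 43 tested S phase genes had a log2 ratio below 0 in new RNA under every scaling tried, as had 47 of 48 G2 and M phase genes and 73 of 82 ribosomal protein genes before rescaling, and 59.2% of all genes tested. The S phase genes had a median log2 ratio of -0.86 in new and -0.49 in pre-existing RNA, and 6 of them were 2-fold lower in new RNA and 1 in pre-existing RNA. CDC6, which loads the replicative helicase, was that gene, 2.18-fold lower in new and 2.07-fold lower in pre-existing RNA. None of 48 G2 and M phase genes passed 2-fold in either kind, with medians of -0.33 and -0.27, nor did any of 82 ribosomal protein genes, with medians of -0.13 and -0.07. Whether fewer cells in S phase or less RNA per cell gave the S phase values cannot be told apart from these sums. Of 28 NRF2 targets 3 were lower in new RNA (SLC7A11, OSGIN1 and FTL) and 3 in pre-existing RNA (SLC7A11, OSGIN1 and GCLM). Of 17 heat shock genes HSPB1 was 3.07-fold higher in new RNA, and 3 were 2-fold lower there, HSP90AA1 (2.20-fold), HSPA1A (2.08-fold), which shares reads with HSPA1B, and SERPINH1 (2.07-fold). HSPA1A and SERPINH1 lay just under 2-fold with TMM or DESeq2 scaling. Of 26 genes of the unfolded protein list 1 was higher (DDIT4, 2.83-fold) and 1 lower (PHGDH) in new RNA, close to the share over all genes tested. Of 27 YAP and matrix genes 5 were higher in both kinds, among them ANKRD1 at 8.75-fold in new and 6.24-fold in pre-existing RNA and THBS1 at 3.00-fold and 2.85-fold, while 4 were lower in each kind. Of 20 p53 and cell cycle inhibitor genes 4 were higher in new RNA, including GADD45A (3.02-fold) and TP53I3 (2.81-fold), and 2 were lower, and of 23 glycolysis genes 2 were higher and 1, PFKFB4, was 2.83-fold lower in new RNA.

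**Figure D5:**
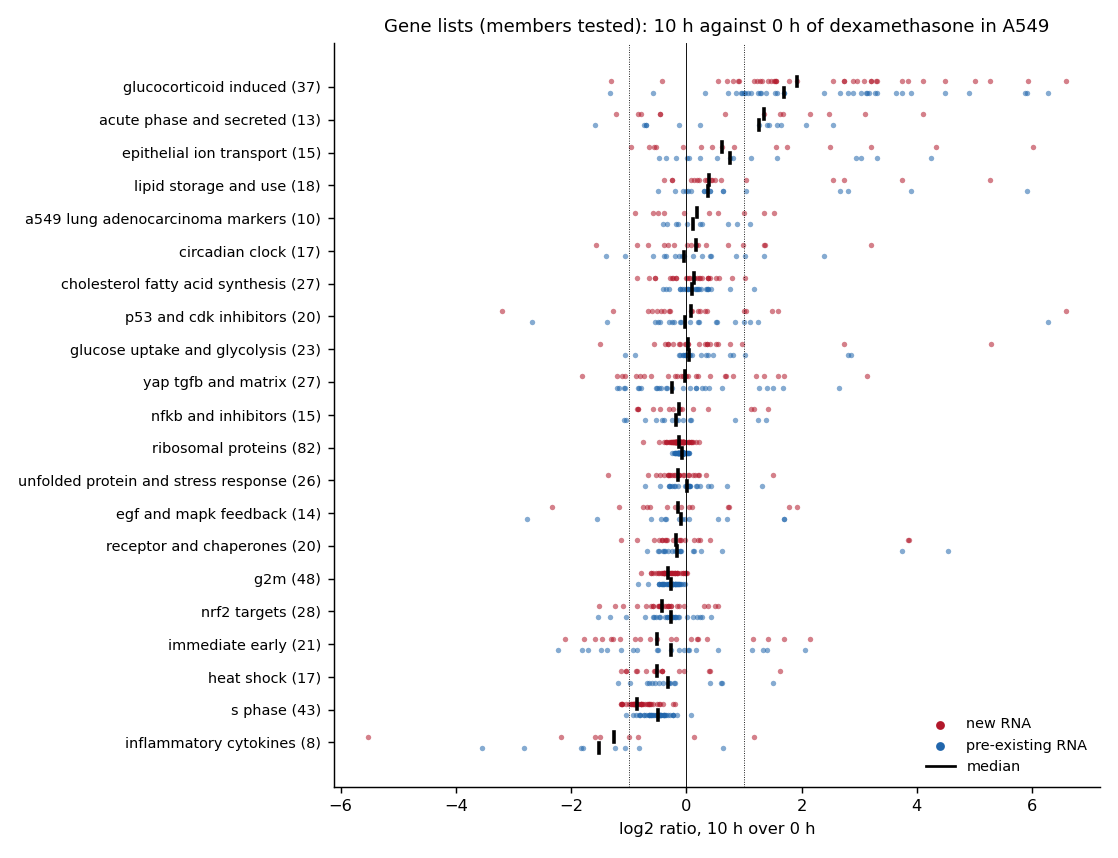
Log2 ratio of 10 h over 0 h (x axis) for the tested members of each list with 8 or more of them (rows, number in brackets), new RNA in red above pre-existing RNA in blue, black ticks for medians and dotted lines at 2-fold. Glucocorticoid-induced genes have medians of 1.92 and 1.70, S phase genes -0.86 and -0.49, and ribosomal protein genes lie close to 0.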

How the data were processed

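The authors deposited unnormalized counts for each gene in each cell, one matrix for whole RNA and one for the RNA they called newly synthesised, per the file headers. The submitters' processing notes name the builds hg19 and mm10 and the tools Picard 1.105, SAMtools 1.3, STAR 2.5.2b and Trim Galore 0.4.1. The sources used here do not give how duplicates were collapsed, how strand was used or which rule made a molecule new. The deposited cell annotation also holds the authors' doublet score, at most 0.191 in any A549 cell, which was not used to leave out cells. Counts were added up over all cells of a time, which gave 28870594 to 43084614 whole counts a culture, and cells were never counted as replicates.

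Ratios compare 10 h with 0 h within each kind of RNA, with exact Clopper-Pearson 95% intervals conditional on the summed count. A count of 0 would have been set to a floor of 3 counts, and no tested gene had one. Pooled reads are not independent molecules beyond what the authors' counting removed, so intervals cover counting error only. No test was run, because there was 1 culture a side. Ratios, intervals and classes were tested on simulated data with known ratios. Those data held counting error only, with no difference between cultures and no wrong calls of new RNA, so they cannot test either. The members, gene lists and classes were chosen with earlier results of these data known. The text names the first 6 protein-coding genes of each class by fold, up to 4 genes of each list with the largest change in new RNA, and NR3C1, 111 genes in all, of which some are not reported here. The AU-rich nonamer, the gain held by pre-existing RNA and the split of folds were added after the data were seen. A planned search of promoters was not run. Gene positions and transcripts come from GENCODE 29 on GRCh38, matched by gene identifier, and no coordinate was carried over from hg19. Alternatives were a minimum of 50 counts, no minimum, a 3-fold threshold, a narrower band, the 8 h culture in place of 10 h, TMM factors from edgeR 4.0.16, size factors from DESeq2 1.42.0, scaling to whole counts, and leaving out the 5% of cells with the most counts. Both packages gave scaling factors only. Python 3.11.15, scipy 1.17.1 and R 4.3.3 were used.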

Additional observations from a re-analysis of the deposited data

How the results depend on the processing

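With 1 culture a side, no replicate could be left out and no culture difference can be measured. No paired analysis was possible because each time was a single culture. None of 146 ratios of genes selected by class or list that were 2-fold or more from 0 h changed sign under the scaling, 8 h and cell filter alternatives, but some came under 2-fold: 14 with the 8 h culture, 3 with TMM, 2 with DESeq2, 6 without the top 5% of cells and 0 with scaling to whole counts. With the 8 h culture the log2 ratio was -0.85 for LRP1, -0.90 for MCM2, -0.91 for CLSPN and -0.79 for EXO1 in new RNA, and -0.75 for CDC6, -0.94 for AXL, -0.76 for PLAUR, 0.81 for KRT8 and 0.85 for SLC16A3 in pre-existing RNA. With TMM it was -0.99 for HSPA1A and -0.98 for SERPINH1 in new RNA. Of 222 such ratios, 71 left their counting interval with the 8 h culture. A lower minimum of 50 counts raised the counts of genes past 2-fold in one kind and within the band in the other, giving 48 higher in new, 18 higher in pre-existing, 109 lower in new and 21 lower in pre-existing RNA. With no minimum, where genes with few counts enter, 3596 genes were higher and 4221 lower in new RNA, 2841 higher and 2929 lower in pre-existing RNA, 970 higher and 1033 lower in both, and the single-kind classes held 1382 (higher, new), 793 (higher, pre-existing), 1694 (lower, new) and 854 (lower, pre-existing). A 3-fold threshold left 165 genes higher and 72 lower in new RNA, 134 higher and 40 lower in pre-existing RNA, 119 higher and 28 lower in both, and 2, 0, 4 and 1 in the single-kind classes in the same order. A band narrower than 1.5-fold, as planned, left 6, 1, 14 and 4 genes in them, so those classes depend on the band chosen. The 8 h culture, TMM, DESeq2, scaling to whole counts and leaving out the top 5% of cells kept all 10 counts within 1.5 times. TMM scaling gave 410 genes higher and 239 lower in new RNA, and turned the new RNA median of the YAP and matrix list from -0.02 to 0.04 and the pre-existing RNA median of the p53 list from -0.02 to 0.02.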
